A study of Gossypium hirsutum with 9 samples.

Results

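The TOPP genes encode the catalytic subunit of type-one protein phosphatase, and 16 of the 70478 genes in the deposited table carry a symbol of the form TOPP followed by a number. They were taken by that symbol alone, as the deposited table pairs it with each identifier. TOPP is the name used for this family in Arabidopsis, and no sequence was compared here. Of them 4 are named TOPP2, 5 TOPP4, 2 TOPP7 and 5 TOPP9. Gh_D10G2504 (TOPP4) and Gh_A03G0379 (TOPP2) had in addition been chosen by their FPKM in RNAi against WT, the TOPP4 gene as higher and the TOPP2 gene as lower in RNAi fibres, so their difference between the groups is a description and supports nothing further.

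Type-one phosphatase removes phosphate from serine and threonine residues. Its small catalytic subunit is highly conserved across eukaryotes, and bound regulatory proteins direct it to its substrates. In Arabidopsis, TOPP4 dephosphorylates DELLA proteins, the repressors of gibberellin signalling and acts on the light-signalling factor PIF5, while TOPP1 restrains SnRK2 kinases of abscisic acid signalling. Cotton fibres are single cells of the seed coat that elongate during the days after anthesis, and upland cotton (Gossypium hirsutum) carries an A and a D subgenome, so most genes have a close copy on each.

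RNA came from fibres of field-grown plants at 9 days post anthesis (DPA). The 5 RNAi libraries, replicates 2 to 6, were from plants in which GhWRKY16, a gene for a WRKY transcription factor, was targeted by RNA interference, and the 3 WT libraries from wild-type plants. The labels give neither the cultivar, nor the promoter of the construct, nor whether the RNAi replicates are 1 or several transgenic lines, nor whether replicates are separate plants, so p-values measure only the spread between these libraries. RNAi replicate 1 was not analysed here. No gene in the table has the symbol WRKY16, so the silencing itself could not be checked. Depth relative to WT replicate 1 was 0.366 in RNAi replicate 4 and between 1.11 and 2.19 in the other RNAi libraries, and 1.76 and 1.38 in WT replicates 2 and 3. RNAi replicate 4 also had the lowest mean correlation with the other libraries, 0.940, against 0.955 to 0.971 for the rest. E6, a fibre-specific gene of cotton, was at 18957 ± 2100 FPKM in RNAi and 20113 ± 836 FPKM in WT (SD, n = 5 and 3) in its most abundant copy, Gh_D05G1514. The 20 genes with seed storage or oil body symbols summed to 0.242 to 1.72 FPKM in RNAi and 0.554 to 0.938 FPKM in WT.

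Expression of the TOPP genes in fibre was dominated by a pair of TOPP9 genes. The levels are FPKM, which are already divided by gene length, so genes can be compared with each other. Gh_D08G2209 (TOPP9) averaged 35.7 ± 4.02 FPKM in RNAi and 40.7 ± 7.94 FPKM in WT, and Gh_Sca005250G02 (TOPP9), on an unplaced scaffold, 32.9 ± 4.51 FPKM in RNAi and 34.4 ± 4.34 FPKM in WT (SD, n = 5 and 3). Both were more abundant than at least 83.8% of the 34051 tested genes in RNAi and 84.4% in WT. Gh_D08G2209 exceeded its scaffold namesake in every library, although the ranges of both overlapped within each group. The other 3 TOPP9 genes were nearly or wholly without signal: Gh_A11G2629 and Gh_D11G3008 were listed at 0 in every library, and Gh_D11G2758 had a value above 0 in RNAi replicate 4 and WT replicate 3 alone.

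After TOPP9 came the TOPP4 genes on chromosomes A10 and D10, then the TOPP2 genes on D05 and A05. In RNAi the order was Gh_D10G2504 (TOPP4) at 13.8 ± 1.01 FPKM, Gh_A10G2014 (TOPP4) at 10.4 ± 0.684, Gh_D05G0908 (TOPP2) at 6.30 ± 1.52, Gh_A05G0778 (TOPP2) at 5.22 ± 0.929 and Gh_D05G3152 (TOPP4) at 2.77 ± 0.739 FPKM (SD, n = 5). In WT the first places were exchanged, with Gh_A10G2014 at 12.5 ± 1.21, Gh_D10G2504 at 7.68 ± 0.303, Gh_D05G0908 at 5.95 ± 0.229, Gh_A05G0778 at 5.12 ± 0.318 and Gh_D05G3152 at 3.21 ± 0.320 FPKM (SD, n = 3). The library ranges of neighbours in this series were separate in WT. In RNAi those of the A05 and D05 TOPP2 genes overlapped, and the others were separate.

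**Figure D1:**
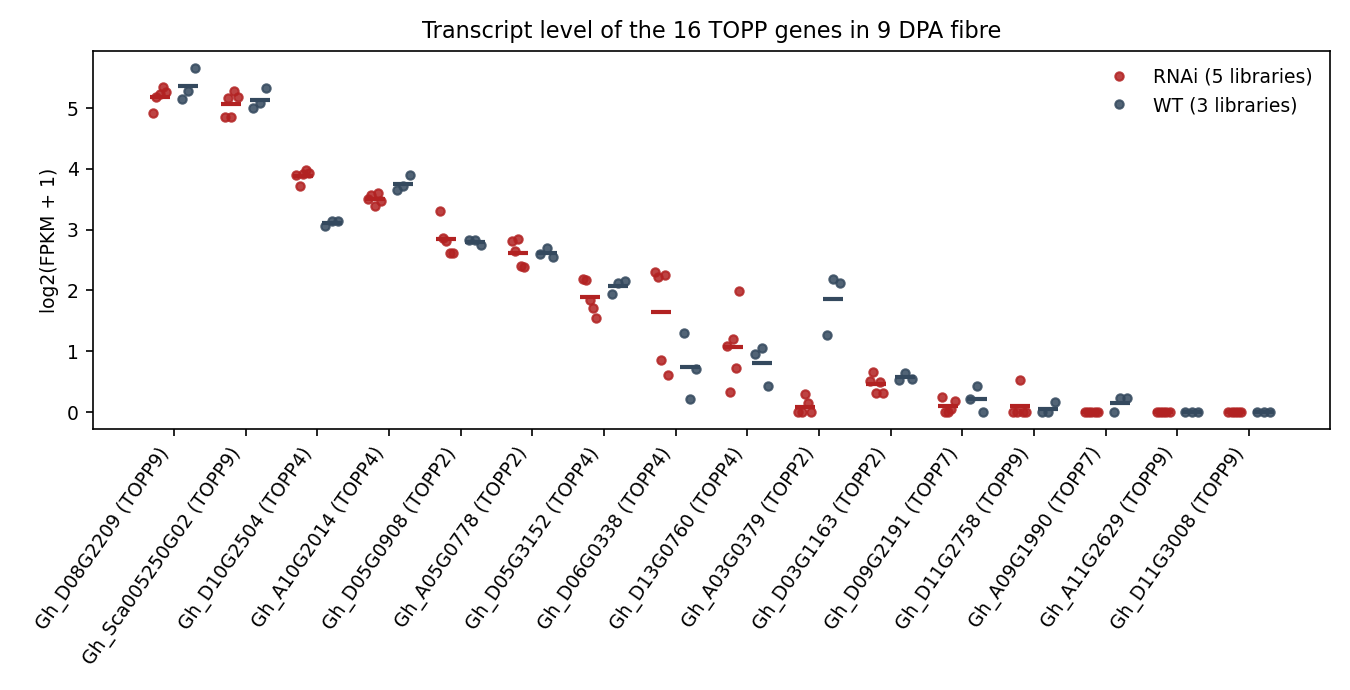
Level of each of the 16 TOPP genes as log2(FPKM + 1), ordered by the mean of all libraries. Points are libraries, RNAi in red and WT in dark blue, and lines are means of the plotted values; the groups lie apart in Gh_D10G2504, Gh_A10G2014 and Gh_A03G0379.

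Below these stood the weakly expressed members. In RNAi, Gh_D06G0338 (TOPP4) averaged 2.54 FPKM, Gh_D13G0760 (TOPP4) 1.26, Gh_D03G1163 (TOPP2) 0.381 and Gh_D09G2191 (TOPP7) 0.0723. The WT means were 0.756, 0.789, 0.486 and 0.170 FPKM in the same order. Their ranges overlapped with those of their neighbours in RNAi, so their order there was not resolved. The TOPP7 gene Gh_A09G1990 was listed at 0 in all 5 RNAi libraries and in WT replicate 1, and had 0.177 and 0.169 FPKM in WT replicates 2 and 3. Of the 16 genes, 10 passed the filter for testing, at least 1 FPKM in at least 3 libraries, and the 6 others did not: the 3 weak TOPP9 genes, both TOPP7 genes and Gh_D03G1163.

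Summed over the 16 genes, TOPP transcript overlapped between the groups. The sums in RNAi replicates 2 to 6 were 106, 113, 106, 120 and 112 FPKM, and in WT replicates 1 to 3 they were 103, 112 and 130 FPKM. The mean was 112 ± 5.98 FPKM in RNAi and 115 ± 13.7 FPKM in WT (SD, n = 5 and 3), so the difference of -3.16 FPKM was smaller than the SD of either group. It was -9.16 FPKM without WT replicate 1 and turned to 4.32 FPKM without WT replicate 3. TOPP9 genes held 61.6% of the summed level in RNAi and 65.5% in WT. TOPP4 genes held 27.6% in RNAi and 21.8% in WT, TOPP2 genes 10.7% in RNAi and 12.5% in WT, and TOPP7 genes 0.0648% in RNAi and 0.248% in WT. The 5 TOPP4 genes together had 28.3 to 33.0 FPKM in RNAi and 24.1 to 26.2 FPKM in WT. Without Gh_D10G2504 the other 4 had 14.1 to 19.1 FPKM in RNAi and 16.8 to 18.3 FPKM in WT, ranges that overlap.

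The TOPP4 gene on D10 was higher in RNAi fibres. Gh_D10G2504 (TOPP4) stood at 13.9, 12.1, 14.2, 14.7 and 14.3 FPKM in RNAi replicates 2 to 6, against 7.33, 7.84 and 7.86 FPKM in WT replicates 1 to 3. Every RNAi library was above every WT library, with the lowest RNAi value in replicate 3. The ratio of the means (RNAi over WT) was 1.80, and the log2 fold change on the log2(FPKM + 1) scale was 0.77 ± 0.11 (SE; RNAi minus WT). With each library left out in turn the log2 fold change lay between 0.74 and 0.82.

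Its namesake on A10 lay slightly the other way. Gh_A10G2014 (TOPP4) had 10.4, 10.9, 9.44, 11.2 and 10.1 FPKM in RNAi replicates 2 to 6 and 11.5, 12.2 and 13.9 FPKM in WT replicates 1 to 3. The groups did not overlap, but the highest RNAi library, replicate 5, and the lowest WT library, replicate 1, were close. The log2 fold change was -0.25 ± 0.11 (SE), and it did not pass limma's threshold (adjusted p = 0.845 over all tested genes). Of the 10 TOPP genes tested, 1 had groups that did not overlap with RNAi higher, Gh_D10G2504, and 2 with RNAi lower, Gh_A10G2014 and Gh_A03G0379. Gh_D10G2504 and Gh_A03G0379 were chosen for that difference, so their separation is no result about the family. Of the other 8 tested genes, 0 were separate with RNAi higher and 1 with RNAi lower. Among all tested genes these shares were 1.72% with RNAi higher and 2.35% with RNAi lower.

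Because one gene of the A10 and D10 pair was higher and the other lower in RNAi, the balance between them changed. The D10 gene made up 57.1%, 52.7%, 60.0%, 56.8% and 58.7% of the pair's FPKM in RNAi replicates 2 to 6, and 38.9%, 39.1% and 36.2% in WT replicates 1 to 3. Thus the D10 gene was the larger contributor in each RNAi library and the smaller in each WT library. The mean share was 57.1% ± 2.74 in RNAi and 38.0% ± 1.62 in WT (SD, n = 5 and 3), a difference of 19.0 percentage points. The pair's sum was 24.2 ± 1.101 FPKM in RNAi and 20.2 ± 1.45 FPKM in WT. For the TOPP2 genes on A05 and D05, by contrast, the D share was 54.5% ± 3.69 in RNAi and 53.8% ± 0.960 in WT. That difference of 0.711 points was within the spread of the libraries.

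**Figure D2:**
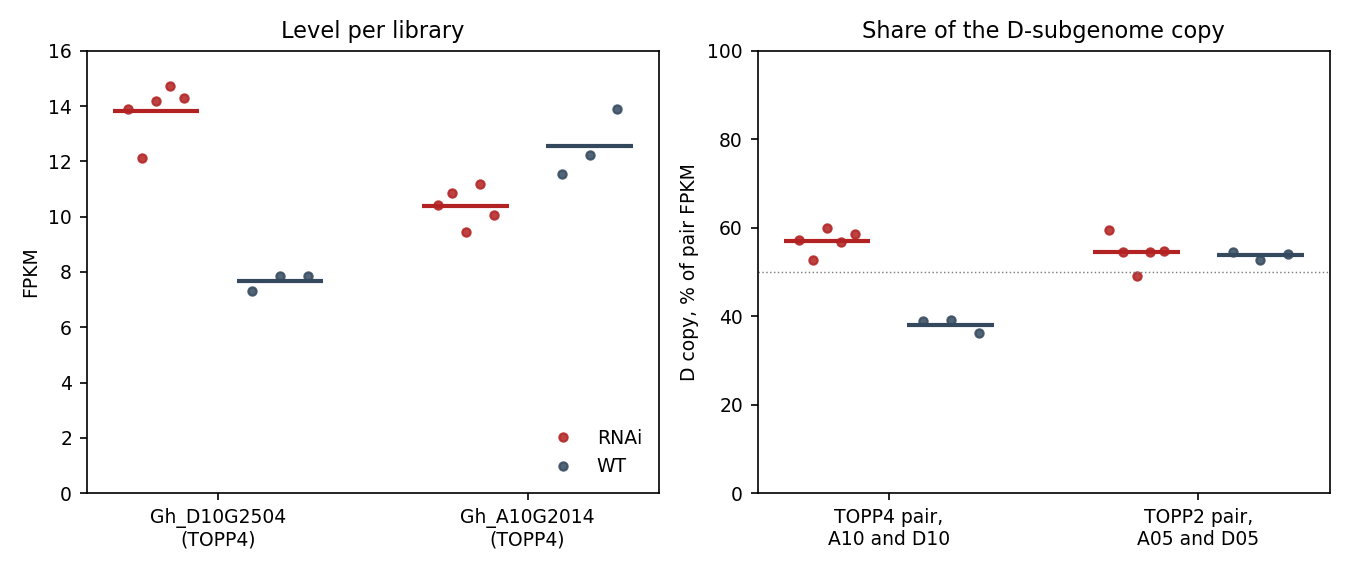
Left, FPKM of the TOPP4 genes on D10 and A10, and right, the D gene as a percentage of the summed FPKM of its pair. Points are libraries (RNAi red, WT dark blue), lines are group means and the dotted line marks 50%; the D10 share is 52.7% to 60.0% in RNAi and 36.2% to 39.1% in WT.

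For scale, 6251 namesake pairs, with both genes tested, were treated in the same way. A pair was a symbol with exactly 1 gene on an A chromosome and 1 on the D chromosome of the same number. A symbol with genes on several chromosomes could give more than 1 pair. The median absolute shift of the D share was 2.22 points and the 99th percentile 16.3 points. The shift of the TOPP4 pair ranked 42 of 6251, and that of the TOPP2 pair ranked 5072. The D share did not overlap between the groups in 4.8% of the pairs. In 5 pairs (0.08%) both genes were separate between the groups in opposite directions. Besides TOPP4 these were GT5, LIP1, LUC7L3 and TSA1, named after their values were seen, and their D shares shifted by -14.5, 6.10, -13.0 and -4.69 points. Since the TOPP4 gene on D10 was singled out for its difference, these ranks place the pair and are not a test of it. Pairs were formed from symbols and chromosome numbers, not from sequence. How reads that fit both copies were assigned is not given in the sources used here.

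**Figure D3:**
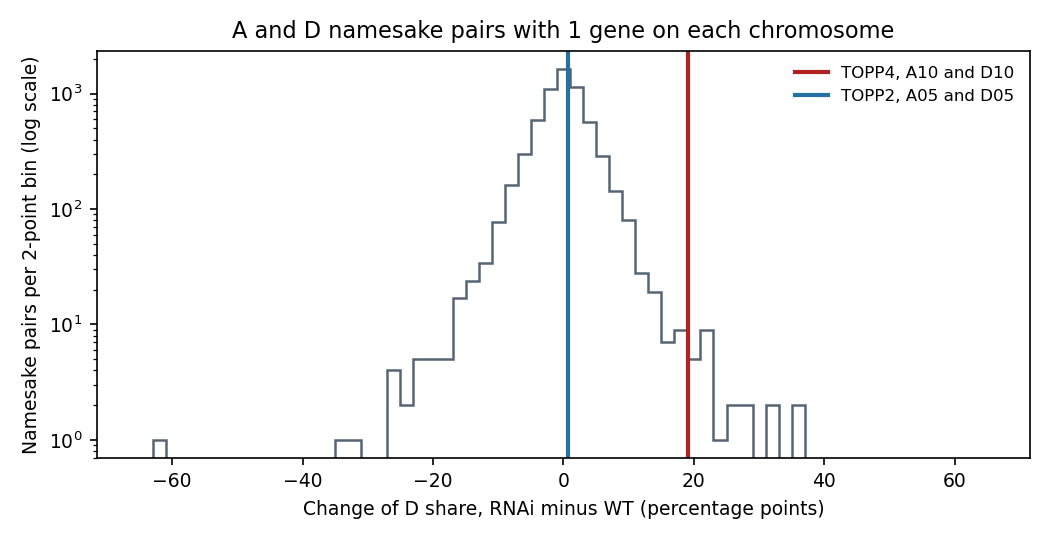
Number of A and D namesake pairs (log scale) by change of the D share, RNAi minus WT, in bins of 2 percentage points. The red line is the TOPP4 pair at 19.0 points and the blue line the TOPP2 pair at 0.711 points; the median of all 6251 pairs is -0.03 points.

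The TOPP2 gene on A03 was close to absent in RNAi fibres. Gh_A03G0379 (TOPP2) was listed at 0 in RNAi replicates 2, 3 and 6 and had 0.228 and 0.114 FPKM in RNAi replicates 4 and 5, against 1.42, 3.54 and 3.38 FPKM in WT replicates 1 to 3. All RNAi libraries were below all WT libraries, and WT replicate 1 had less than the other WT libraries. The log2 fold change was -1.77 ± 0.23 (SE) with a pseudocount of 1, and for a gene with zeros it depends on that choice, falling to -4.18 with a pseudocount of 0.1 and -6.37 with 0.01. The gene passed the filter through its WT values alone.

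Whole reads could be worked out for this gene from the deposited values. Each value multiplied by the relative depth of its library was a whole multiple, to within 0.01, of 1 unit, the smallest number of reads that fits. In those units RNAi replicates 2 to 6 had 0, 0, 1, 3 and 0 reads and WT replicates 1 to 3 had 17, 75 and 56. Per depth, the 4 reads of RNAi and the 148 of WT gave a ratio of 0.0166 (RNAi over WT). For the RNAi libraries without a read, 3 reads would have been 0.199, 0.136 and 0.225 FPKM in replicates 2, 3 and 6, all below the lowest WT value. In RNAi replicate 4, the shallowest library, 1 read was worth 0.228 FPKM.

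In the other TOPP2 genes the groups overlapped. Gh_D05G0908 (TOPP2) had 8.87, 6.31, 5.998, 5.16 and 5.16 FPKM in RNAi replicates 2 to 6 and 6.08, 6.08 and 5.68 FPKM in WT replicates 1 to 3. Its RNAi libraries spread around the WT values, with replicate 2 on its own at the top (log2 fold change 0.05 ± 0.17 SE, limma adjusted p = 0.968). Gh_A05G0778 (TOPP2) had 6.04, 5.25, 6.23, 4.32 and 4.25 FPKM in RNAi replicates 2 to 6 and 5.07, 5.46 and 4.83 FPKM in WT replicates 1 to 3 (log2 fold change 0.01 ± 0.15 SE, limma adjusted p = 0.991). Gh_D03G1163 (TOPP2), too low to be tested, had 0.426, 0.585, 0.244, 0.408 and 0.241 FPKM in RNAi replicates 2 to 6 and 0.447, 0.557 and 0.453 FPKM in WT replicates 1 to 3, and its groups overlapped. It had 32 reads in RNAi and 23 in WT in all, counted in the same way.

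Among the remaining TOPP4 genes, Gh_D06G0338 varied most between libraries. It had 3.96, 3.68, 0.801, 3.75 and 0.527 FPKM in RNAi replicates 2 to 6 and 1.47, 0.166 and 0.636 FPKM in WT replicates 1 to 3. RNAi replicates 2, 3 and 5 were above all WT libraries, while RNAi replicates 4 and 6 lay within the WT range. In whole reads this was 17, 23, 1, 28 and 2 in RNAi and 5, 1 and 3 in WT. The log2 fold change was 0.90 ± 0.45 (SE), the largest positive one of the family, and it did not pass (limma adjusted p = 0.864).

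**Figure D4:**
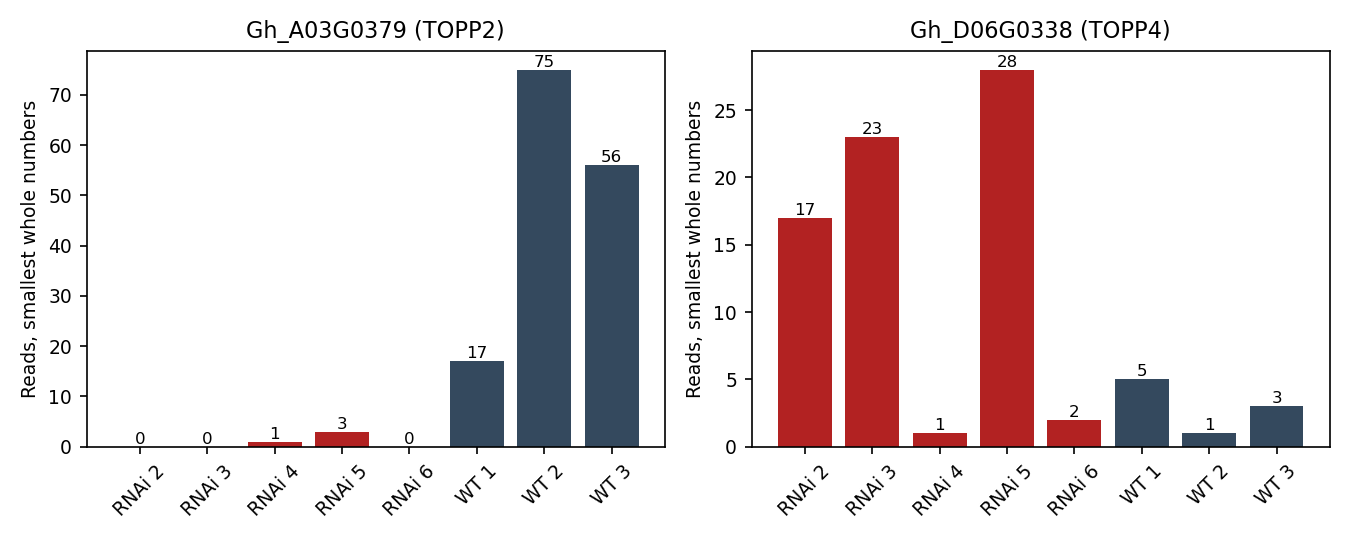
Reads per library for the TOPP2 gene on A03 and the TOPP4 gene on D06, as the smallest whole numbers that fit the FPKM values and relative depths. Bars are single libraries, RNAi red and WT dark blue, and are not corrected for depth; Gh_A03G0379 has 0 to 3 reads in RNAi and 17 to 75 in WT, and Gh_D06G0338 has 1 to 28 in RNAi and 1 to 5 in WT.

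Gh_D05G3152 (TOPP4) had 3.58, 3.49, 2.59, 2.27 and 1.92 FPKM in RNAi replicates 2 to 6 and 2.85, 3.36 and 3.43 FPKM in WT replicates 1 to 3 (log2 fold change -0.18 ± 0.18 SE, limma adjusted p = 0.9004). Gh_D13G0760 (TOPP4) rested on few reads, 3, 1, 1, 3 and 7 in RNAi and 2, 4 and 1 in WT, and was at 0.259 to 2.98 FPKM in RNAi and 0.343 to 1.08 FPKM in WT (limma adjusted p = 0.921). The reads behind the more abundant A10 and D10 genes were more numerous. Gh_D10G2504 had 212, 270, 63, 392 and 193 reads in RNAi replicates 2 to 6 and 89, 168 and 132 in WT replicates 1 to 3, and Gh_A10G2014 had 159, 242, 42, 298 and 136 in RNAi and 140, 262 and 233 in WT. Per depth these counts gave ratios (RNAi over WT) of 1.78 for Gh_D10G2504 and 0.847 for Gh_A10G2014 (exact 95% interval for Gh_A10G2014 0.764 to 0.939, counting error only). For the abundant TOPP9 genes no whole numbers were found.

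In the most abundant members the groups overlapped as well. Gh_D08G2209 (TOPP9) had 29.2, 35.4, 36.7, 40.0 and 37.4 FPKM in RNAi replicates 2 to 6 and 34.5, 37.9 and 49.6 FPKM in WT replicates 1 to 3, with a log2 fold change of -0.17 ± 0.15 (SE; limma adjusted p = 0.892). Gh_Sca005250G02 (TOPP9) had 28.0, 35.0, 28.1, 37.8 and 35.3 FPKM in RNAi and 30.9, 33.0 and 39.3 FPKM in WT, with a log2 fold change of -0.07 ± 0.14 (SE; limma adjusted p = 0.952). In both genes WT replicate 3 was the highest library. Over the 8 libraries, the deviations of these TOPP9 genes from their group means on the log2(FPKM + 1) scale had a Pearson r of 0.785, given as a description since the genes share libraries and depth.

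In the fit across all genes, 2 of the 10 tested TOPP genes passed limma's threshold, Gh_D10G2504 as higher and Gh_A03G0379 as lower in RNAi, against 0.0793% of all tested genes called higher and 0.0881% called lower. Both are the genes singled out for that difference, so the count is no evidence on them or on the family. None of the other 8 passed, with limma adjusted p from 0.845 to 0.991, and 0 of them had an unadjusted p under 0.05, against 5.86% of all tested genes. Among these 8 genes the log2 fold changes were positive in 4 and negative in 4, with a median of -0.03, beside a median of -0.02 over all tested genes. Whether these 2 genes passed depended on the libraries present. Their log2 fold changes with 1 library left out were 0.74 to 0.82 for Gh_D10G2504 and -2.07 to -1.61 for Gh_A03G0379. With 1 library left out, Gh_A03G0379 alone passed without WT replicate 1 or without RNAi replicate 4, and 0 TOPP genes passed without any one of the other 6 libraries (WT replicates 2 and 3 and RNAi replicates 2, 3, 5 and 6).

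Other phosphatases named as type one did not pass the threshold, which 0.167% of all tested genes passed in either direction. The 2 genes with the symbol PP1 were at 16.2 ± 2.04 FPKM in RNAi and 16.7 ± 0.844 FPKM in WT for Gh_A02G1040, and at 14.4 ± 1.67 FPKM in RNAi and 14.8 ± 0.866 FPKM in WT for Gh_D03G0684 (SD, n = 5 and 3; limma adjusted p = 0.963 and 0.965). No gene carried a symbol of the type-one regulators searched for, such as PPP1R, INH3 or SDS22.

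No gene of the related phosphatase families listed here passed the threshold either. With 0.167% of all tested genes called, an absence of calls in lists of this size is near the general share. Of 23 tested genes with symbols of the PP2A catalytic subunit, 16 had a positive and 7 a negative log2 fold change (median 0.04). Some of those symbols are shared with phloem lectins, which the table cannot separate. Gh_A12G1588 (PP2A), with the smallest p, had 22.3 ± 3.65 FPKM in RNAi and 17.1 ± 2.54 FPKM in WT (limma adjusted p = 0.840). Among 69 PP2A regulatory subunits, 39 were positive and 30 negative (median 0.03), and Gh_A11G3084 (PP2AB1) had 3.17 ± 0.691 FPKM in RNAi and 5.24 ± 0.827 FPKM in WT (limma adjusted p = 0.657). The 29 genes with symbols of the related PP4, PP5, PP6 and BSL phosphatases were positive in 16 and negative in 13 (median 0.02). This list includes regulatory subunits of PP4 or PP6, and its BSL group is known from brassinosteroid signalling. In it Gh_A09G0946 (BSL2) was at 1.55 ± 0.172 FPKM in RNAi and 0.975 ± 0.219 FPKM in WT (limma adjusted p = 0.840). The structurally unrelated PP2C phosphatases, which include the abscisic acid co-receptors ABI1 and ABI2, were positive in 7 and negative in 10 of 17 (median -0.12). Of them Gh_D13G2089 (ABI2) had 2.04 ± 0.752 FPKM in RNAi and 5.49 ± 2.83 FPKM in WT (limma adjusted p = 0.711).

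Transcripts for the kinds of protein that Arabidopsis TOPPs are known to act on did not pass the threshold in any list below. Here too the absence of calls is near the share of all tested genes called, 0.167%, and says little about these lists. Of 7 tested DELLA genes, 6 were positive and 1 negative (median 0.08). Gh_D01G1446 (GAIPB) had 13.9 ± 3.89 FPKM in RNAi and 11.2 ± 2.64 FPKM in WT, and Gh_A01G1242 (GAIPB) had 15.3 ± 1.14 FPKM in RNAi and 17.4 ± 5.01 FPKM in WT (limma adjusted p = 0.892 and 0.906). PIF genes were positive in 5 and negative in 3 of 8 (median 0.08), with Gh_D09G0072 (PIF5) at 1.12 ± 0.0833 FPKM in RNAi and 1.29 ± 0.390 FPKM in WT (limma adjusted p = 0.936). SnRK2 kinases were positive in 7 and negative in 15 of 22 (median -0.12), and Gh_A02G0789 (SAPK2) had 0.786 ± 0.302 FPKM in RNAi and 1.51 ± 0.514 FPKM in WT (limma adjusted p = 0.840). These are transcript levels, and phosphorylation was not measured.

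Markers of the fibre and of other tissues gave the following beside these values. Of 94 tested genes with fibre symbols (E6, expansins, fasciclin-like proteins, beta-tubulins, sucrose synthases), 1 passed the threshold as higher and none as lower. Among all tested genes 0.0793% were called higher and 0.0881% lower. The gene called was Gh_D11G2510 (TUBB2), with 21.6 ± 2.38 FPKM in RNAi and 8.70 ± 0.494 FPKM in WT (SD, n = 5 and 3, limma adjusted p = 0.0039). Of the 94, 74 had a positive and 20 a negative log2 fold change, with a median of 0.18 beside -0.02 over all tested genes. An unadjusted limma p under 0.05 was found in 11 of the 94, and in 5.86% of all tested genes. Gh_A05G0808 (EXPA4) had 4.10 ± 1.07 FPKM in RNAi and 1.43 ± 0.325 FPKM in WT, and Gh_A10G0257 (E6) had 5.38 ± 1.34 FPKM in RNAi and 2.22 ± 0.393 FPKM in WT (limma adjusted p = 0.102 and 0.215). In both, printed for their small p, the groups did not overlap, with RNAi higher, as in 1.72% of all tested genes. The sum of the fibre list was 65587 to 79645 FPKM in RNAi and 72726 to 76379 FPKM in WT. None of 43 tested photosynthesis genes passed (18 positive, 25 negative, median log2 fold change -0.06, 8 with an unadjusted p under 0.05). The 3 with the smallest p went both ways. Gh_D07G1759 (RBCS) averaged 3.09 FPKM in RNAi and 0.850 FPKM in WT, and Gh_A07G2172 (RBCS) 3.61 FPKM in RNAi and 0.626 FPKM in WT. Gh_D04G0269 (PSAN) averaged 23.0 FPKM in RNAi and 33.8 FPKM in WT (limma adjusted p = 0.102, 0.129 and 0.310 in this order). The sum of the photosynthesis list was 479 to 576 FPKM in RNAi and 525 to 661 FPKM in WT. None of 7 tested genes with cell division symbols passed (2 positive, 5 negative, median log2 fold change -0.13, 0 with an unadjusted p under 0.05), and that list summed to 259 to 357 FPKM in RNAi and 294 to 322 FPKM in WT. Most of that sum came from the CYCB1-2 genes. Gh_D08G0489 averaged 147 FPKM in RNAi and 155 FPKM in WT, and Gh_A08G0398 145 FPKM in RNAi and 140 FPKM in WT. In bulk tissue, fewer cells of a type and less RNA per cell cannot be told apart, and the part of other cell types in the TOPP values was not tested.

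The genes whose level across the 8 libraries was most like that of Gh_D10G2504 were Gh_A12G0139 (DRP5A, a dynamin-related protein of the cell plate; Pearson r = 0.987), Gh_A01G0110 (TFT6, a 14-3-3 protein; 0.979) and Gh_A04G0895 (STH-2, a defence protein; 0.966). All 3 were separate between RNAi and WT, which follows from a high r with a gene chosen for its difference between the groups. DRP5A averaged 3.30 FPKM in RNAi and 0.137 FPKM in WT, TFT6 158 FPKM in RNAi and 2.07 FPKM in WT, and STH-2 4.15 FPKM in RNAi and 1.04 FPKM in WT. For Gh_A03G0379 the most alike were Gh_D09G2080 (LOX5, a lipoxygenase; r = 0.984) at 0.663 FPKM in RNAi and 6.33 FPKM in WT, Gh_A03G0459 (rnj; 0.979) at 0.293 FPKM in RNAi and 3.94 FPKM in WT, and Gh_A03G2066 (ISY1, a splicing factor; 0.977) at 1.31 FPKM in RNAi and 7.43 FPKM in WT. The ISY1 and rnj genes are on chromosome A03, as is Gh_A03G0379 itself. The share of A03 genes among all those alike, or among all tested genes, was not counted, so nothing follows from this. An r of at least 0.9 was reached by 59 genes with Gh_D10G2504 and by 68 with Gh_A03G0379, out of 34051. As both genes were chosen for their difference between RNAi and WT, these r values reflect that difference and are a description only.

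When only the deviations from the group means were compared, which leaves the difference between RNAi and WT aside, other genes came first. For Gh_D10G2504 they were Gh_A01G0961 (REM16; r = 0.943), Gh_A08G1973 (RPN12A, a proteasome subunit; 0.938) and Gh_D02G0394 (CRCP; 0.934). For Gh_A03G0379 they were Gh_A05G2738 (LPP2, a lipid phosphate phosphatase; 0.979), Gh_Sca024275G01 (TUBG1, gamma-tubulin; 0.972) and Gh_A12G2072 (RH48, an RNA helicase; 0.964). LPP2, for example, was at 13.4 ± 0.617 FPKM in RNAi and 14.4 ± 2.94 FPKM in WT, with WT replicate 1 the lowest of all libraries, as it also was among the WT values of Gh_A03G0379. None of these names overlapped with the first lists. An r of at least 0.9 was reached by 25 genes with Gh_D10G2504 and by 98 with Gh_A03G0379, out of 34051. The genes named are the top of a ranking of all tested genes over 8 libraries. How many unrelated genes would reach such an r was not tested, so they are a description only. The RNAi values of Gh_A03G0379 were all close to 0, so its deviations rested mostly on the WT libraries.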

How the data were processed

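The authors deposited 1 table of FPKM per gene with 8 columns, matched to samples by group and replicate number. Per the submitters' processing notes, FastQC, HISAT2 and DESeq 1.10.1 were used, without their role. Build, annotation, counter and treatment of reads shared by gene copies are not given in the sources. The identifiers had 0 matches in RefSeq's gene table for Gossypium_hirsutum_v2.1, so neither coordinates nor sequences are given and chromosomes are those in the identifiers. The members and gene lists were chosen with earlier results of these data known. Some list patterns were narrowed once the symbols were seen (disease resistance genes named RGA1 to RGA4, pectinesterases named PPME1 and other namesakes were left out). 1 further gene list is not reported here.

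For 34051 genes that reached 1 FPKM in 3 or more libraries, log2(FPKM + 1) was fitted by limma 3.58.1 (R 4.3.3) using a trended empirical Bayes variance, and two-sided p-values were adjusted by Benjamini-Hochberg, with a threshold of 0.05. The script was checked on data with known changes. The scale understates changes of low genes. Named genes were the TOPP members, up to 3 genes per list with the smallest p (of which mostly the first is printed) and the 3 genes most alike. Alternatives were scaling, pseudocount, filter, trend, array weights, a replicate block and each library left out.

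Relative depth came from values under 0.5 FPKM, whose ratios between libraries cluster at ratios of whole numbers up to 4 (49.5% to 70.3% of values, tolerance 0.01 on the log2 scale). Read numbers are the smallest whole numbers, within 0.1, proportional to FPKM times depth, and the true number may be a multiple. Total depth is unknown. Intervals are 95% exact conditional binomial and cover counting error only.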

Additional observations from a re-analysis of the deposited data

Results flagged for a closer look

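Of 17 sets of 5 RNAi values checked, 1 stood out by a single distant library, and how often chance gives this was not tested. Gh_D11G2758 (TOPP9) was at 0.441 FPKM in RNAi replicate 4, while the other 4 RNAi libraries were listed at 0. The value was 1 read in the smallest whole numbers, in the shallowest library. Among WT libraries, replicate 3 had 0.117 FPKM, also 1 read, and the others were listed at 0.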

How the results depend on the processing

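The number of genes past limma's threshold was 57, and it was 35 with a pseudocount of 0.01, 36 with a filter at 5 FPKM, 88 with array weights and 313 with a replicate block, and 33 to 58 with 1 library left out. The number of TOPP genes past it was 2, and it was 1 with a pseudocount of 0.1, 1 with 0.01 and 1 with a filter at 5 FPKM (Gh_D10G2504 each time), and 0 to 1 with 1 library left out. WT and RNAi share replicate numbers 2 and 3 only. Their deviations from the group means correlated at 0.35 and -0.093, so the block rests on libraries that share a number. Under it the log2 fold change was 0.66 for Gh_D10G2504, -2.16 for Gh_A03G0379 and 1.80 for Gh_D06G0338, which then passed (limma adjusted p = 0.0419). Gh_D10G2504 lost its call under the block, so the number of TOPP genes past the threshold stayed at 2 with a different pair of genes. As Gh_D10G2504 and Gh_A03G0379 were chosen for their difference, their calls in any setting are no evidence on them. The block's contrast came only from WT and RNAi replicates 2 and 3, since a number held by 1 group gives no difference between groups. The RNAi libraries low in Gh_D06G0338 were not part of that contrast. Gh_A10G2014 kept its sign in all 17 alternatives (-0.30 to -0.18) and passed in none. The sign changed for Gh_A05G0778 in 4 alternatives and for Gh_Sca005250G02, Gh_D05G0908 and Gh_D13G0760 in 2 each, and for Gh_D05G3152 in 1. Genes under 5 FPKM, Gh_A03G0379 among them, were not in the fit with that filter. The difference in summed TOPP level (-3.16 FPKM) was -1.45 with median-ratio scaling and lay between -9.16 without WT replicate 1 and 4.32 without WT replicate 3. Depth limits the weak members most, in RNAi replicate 4 above all.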
